A study of Trichoderma reesei with 12 samples.

Results

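The interaction of tmk3 loss with light was described in Trichoderma reesei: for each gene, whether the difference made by the deletion changed between constant light and constant darkness. Members were the libraries whose sample titles place them in 4 groups of 3, which gave 12 of the 12 libraries of the series, and all gene models of the count table entered one model, with 8998 of 10879 passing the filter on low counts. The first group was the strain QM6a-delta-ku80-delta-tmk3 in constant light, the second its parent QM6a-delta-ku80 in constant light, the third QM6a-delta-ku80-delta-tmk3 in constant darkness and the fourth QM6a-delta-ku80 in constant darkness. All 12 libraries came from mycelium grown for 96 h at 28 °C in minimal medium with cellulose, and both strains lack ku80, which serves the joining of broken DNA ends and is removed to ease gene targeting. The labels call the parent wild type, name no complemented strain and no second deletion strain, and do not state whether the 3 samples of each group were separate cultures. If they were not, the p-values measure technical spread alone. QM6a-delta-ku80-delta-tmk3 is called the deletion strain and QM6a-delta-ku80 the parent, and the deletion effect is the difference between them, which cannot be told apart from other differences between the strains.

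Tmk3 is the Trichoderma mitogen-activated protein kinase of the Hog1 type, a class known from yeast for the response to high osmolarity. Such kinases receive signals from a phosphorelay of histidine kinases and act on transcription factors. In the related mould Aspergillus nidulans, phytochrome passes light signals to the Hog-type kinase, and in Trichoderma atroviride Tmk3 takes part in light responses. Blue light reaches transcription in Trichoderma through the photoreceptors BLR1 and BLR2, and its regulator ENV1 links light to cellulase genes. The interaction measures whether the effect of the deletion depends on light.

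The count table carries identifiers made of a series letter, a number and a W or C, and 0 of its 10879 identifiers were found among the 9116 entries of the gene table at hand. The files do not pair them with gene names, so no function is given for any identifier, no sequence is shown, and the tmk3 transcript was not looked up. The table has 3 named entries, mat1-1-1, mat1-1-2 and mat1-1-3, genes of the mating type that strain QM6a does not carry. mat1-1-1 had 3 counts over the deletion strain in light, 3 over the parent in light, 0 over the deletion strain in darkness and 1 over the parent in darkness. The other two had 0 counts in every library. No fold is given for these genes, which lay at or under a floor of 3 counts.

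Total counts ran from 11599300 to 17702344 per library. Levels are in CPM, counts scaled by TMM-adjusted library size, and the limit that 0 counts set was between 0.171 and 0.247 CPM, depending on the library. The groups differed in spread. The biological coefficient of variation was 0.107 in the deletion strain in light, 0.175 in the parent in light, 0.225 in the deletion strain in darkness and 0.405 in the parent in darkness. Replicate 2 of the parent in darkness stood apart with a TMM factor of 0.761. The interaction draws on that group, so results are also given without that library. Chi-square per degree of freedom between replicates ran from 12.4 to 461, so no library was a repeat of another.

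The deletion effect depended on light for 1269 of 8998 tested genes, 14.1% of the transcriptome measured. For 575 genes (6.39%) the interaction was positive, meaning that the level in the deletion strain relative to the parent was higher in light than in darkness. For 694 genes (7.71%) it was negative. Calls were made at an adjusted p below 0.05 in edgeR's quasi-likelihood test with Benjamini-Hochberg adjustment over all tested genes. In bulk mycelium, a change in the share of a cell type and a change in RNA per cell cannot be told apart.

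The median interaction was 1.53 on the log2 scale among positive genes, with quartiles of 0.98 and 2.64, and -1.53 among negative genes, with quartiles of -2.28 and -0.99. Over all tested genes the median was 0.05. Among called genes, an interaction of at least 2-fold was seen in 425 positive genes (4.72% of those tested) and 510 negative genes (5.67%). It was at least 4-fold in 210 and 223, and at least 16-fold in 71 and 54. Over all 8998 tested genes, called or not and in either direction, 2138 reached 2-fold, 837 reached 4-fold and 203 reached 16-fold. Many fitted values of these sizes were thus not called. Without replicate 2 of the parent in darkness 1958 genes were called, 900 positive and 1058 negative, and 1241 of the 1269 were among them. Leaving out replicate 2 of the light deletion strain left 842 genes, 379 of them positive. Positive genes also fell in number to 361 with replicate 1 of the light deletion strain left out, and to 354 and 374 with replicates 1 and 3 of the light parent left out. Leaving out each of the 12 libraries in turn kept 710 of the 1269 in every fit, 292 positive and 418 negative. In limma-voom with a weight for each group the order turned, with 539 positive and 493 negative. Scaled by total counts alone the split was 345 positive and 715 negative, and the median of all genes was -0.12 in place of 0.05.

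The simple effects behind an interaction were sorted by the condition in which they were called. Such a class does not show which condition carried the interaction, since a call depends on spread and the groups differed in spread. In the same fit the deletion effect was called for 20.5% of all genes in light (10.8% rose and 9.78% fell) and for 40.7% in darkness (19.1% rose and 21.6% fell). Among the 1269 interaction genes, 246 (19.4%) had a deletion effect called in light alone and 706 (55.6%) in darkness alone. Over all tested genes these classes held 662 (7.36%) for light alone and 2477 (27.5%) for darkness alone. Another 141 (11.1%) had effects called in both conditions in opposite directions, 146 (11.5%) in both in the same direction, and 30 (2.36%) in neither. Over all tested genes the opposite class held 141 (1.57%), the same-direction class 1046 (11.6%), a share like that among interaction genes, and the class with neither 4672 (51.9%). These classes share their libraries with the interaction and are a description, given with no test.

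The commonest class was a fall without tmk3 in darkness that was not called in light. It held 365 genes, 63.5% of the positive ones, with a median deletion effect of 0.16 in light and -1.33 in darkness on the log2 scale. Its mirror image, a rise in darkness not called in light, held 341 genes, with medians of -0.07 in light and 1.21 in darkness. The classes called in light alone were 96 genes that rose, with medians of 1.25 in light and -0.20 in darkness, and 150 that fell, with medians of -1.54 in light and 0.20 in darkness. In all, light alone held 246 genes and darkness alone 706, and the gap narrowed to 301 for light alone and 435 for darkness alone in limma-voom with a weight for each group, which lets the groups differ in spread. The weights were 2.84 for the deletion strain in light, 1.09 for the parent in light, 0.98 for the deletion strain in darkness and 0.33 for the parent in darkness.

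**Figure D1:**
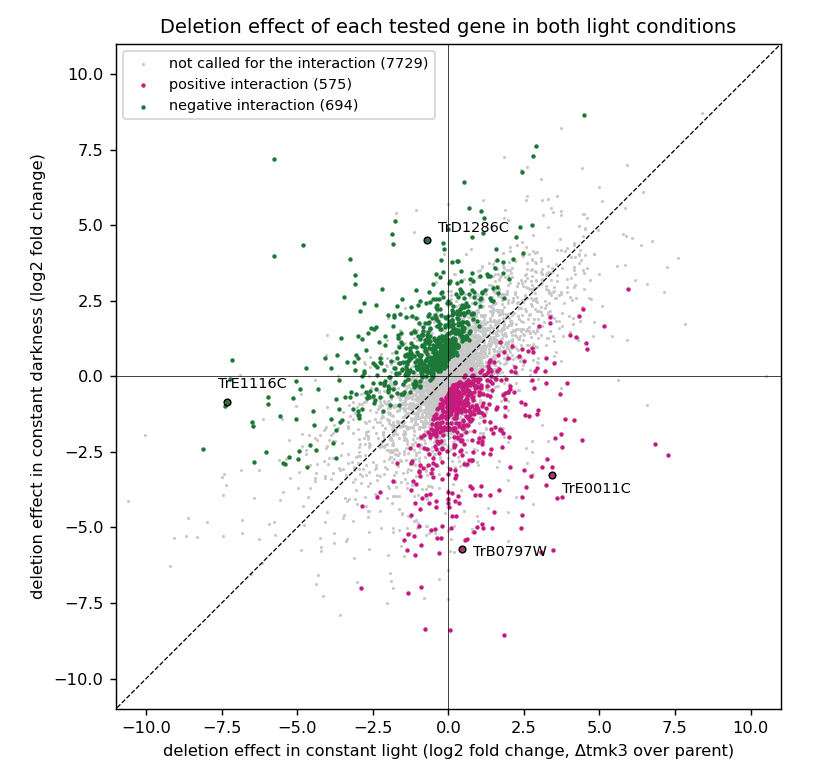
Each point is 1 of the 8998 tested genes, placed by its deletion effect (log2 fold change of the deletion strain over the parent) in constant light on the horizontal axis and in constant darkness on the vertical axis. Genes on the dashed line have equal effects, the 575 genes with a positive interaction lie below it and the 694 with a negative one above it, and the 4 circled genes are described in the text.

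Seen as light responses, the same genes fall into other classes. A light response was called for 38.7% of all tested genes in the deletion strain (17.7% rose and 21.1% fell) and for 47.5% in the parent (20.8% rose and 26.7% fell). Among positive interaction genes, 234 (40.7%) were not called in the deletion strain while they fell in light in the parent, 150 (26.1%) fell in both strains, and 122 (21.2%) rose in the deletion strain alone. Over all tested genes these classes held 1097 (12.2%), 1270 (14.1%) and 621 (6.90%). Of the 150 that fell in both, the median light response was -1.49 in the deletion strain and -3.47 in the parent. Among negative genes, 239 (34.4%) were not called in the deletion strain while they rose in light in the parent, and 184 (26.5%) fell in the deletion strain alone. Another 103 (14.8%) rose in both, by medians of 1.15 in the deletion strain and 2.86 in the parent. Over all tested genes these classes held 848 (9.42%), 537 (5.97%) and 932 (10.4%). A change of sign was called for 37 genes (0.411% of all tested), which rose in light in the deletion strain and fell in the parent, and for 88 (0.978%), which fell in the deletion strain and rose in the parent. All 37 were called for a positive interaction and all 88 for a negative one. This is no separate result, since the interaction is the difference of these light responses in the same fit. Its sign was fixed by the choice of genes, and the call nearly so.

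**Figure D2:**
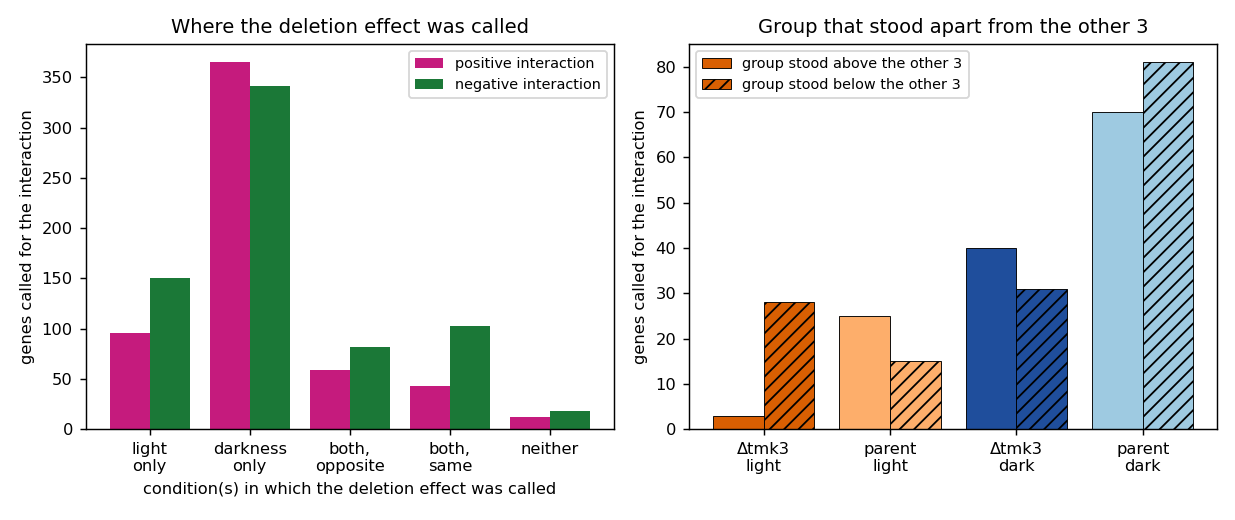
Left, genes called for the interaction by the conditions in which their deletion effect was also called, with positive and negative interactions side by side. Right, genes in which 1 group's mean log2 CPM lay at least 1 outside the range of the other 3 while those 3 lay within 1 of each other; Δtmk3 is the deletion strain, plain bars are groups above the rest and hatched bars groups below, and the parent in darkness has the tallest bars with 70 and 81 genes.

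The genes with the largest interactions, taken among those with 10 or more counts in every group and a log2 CPM averaging 3 or more that were called in all 12 leave-one-out fits, behaved in several ways. TrE0011C had 113, 75.1 and 162 CPM in the deletion strain in light, against 7.24, 17.3 and 8.31 CPM in the parent in light. In darkness it had 3.79, 2.16 and 0.97 CPM in the deletion strain, against 18.3, 15.5 and 32.4 CPM in the parent. The deletion strain was thus above the parent in light and below it in darkness, with no overlap in either condition. The log2 deletion effect was 3.41 in light and -3.28 in darkness, and the interaction was 6.69 (SE 0.73, edgeR adjusted p = 0.000333). Light raised this gene in the deletion strain by 5.68, and in the parent the light response was -1.01 (edgeR adjusted p = 0.0994).

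TrB0797W differed between the strains in darkness. It had 4.43, 3.74 and 5.75 CPM in the deletion strain in light, against 2.95, 4.40 and 2.75 CPM in the parent in light, and these ranges overlapped. Its dark levels were 13.1, 7.76 and 9.97 CPM in the deletion strain, against 425, 911 and 278 CPM in the parent. The parent in darkness was far above every other group, and the log2 deletion effect in darkness was -5.71. The interaction was 6.17 (SE 0.60, edgeR adjusted p = 0.000165). Leaving out replicate 2 of the parent in darkness gave 5.51.

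TrE1116C was lower in the deletion strain in both conditions, and far more so in light. It had 34.9, 34.1 and 23.5 CPM in the deletion strain in light, against 6047, 3949 and 4936 CPM in the parent in light. In darkness it had 106, 102 and 91.5 CPM in the deletion strain, against 116, 262 and 167 CPM in the parent. In the parent the gene rose with light by 4.78 on the log2 scale, while in the deletion strain it fell, with a log2 light response of -1.69. Its deletion effect was -7.33 in light and -0.86 in darkness (edgeR adjusted p = 0.0279 in darkness), both called. The strains did not overlap in either condition. Its interaction was -6.47 (SE 0.42, edgeR adjusted p = 2.49e-05). By mean CPM over the 4 groups it ranked 75 among the 8998 genes, a rank it owed to its level in the light parent.

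TrF0049W had a negative interaction with more scatter. It had 6.41, 1.42 and 2.43 CPM in the deletion strain in light, against 28.0, 17.0 and 41.8 CPM in the parent in light. In constant darkness there were 20.0, 89.5 and 192 CPM in the deletion strain, against 13.7, 7.42 and 15.0 CPM in the parent. The groups did not overlap in either condition, but the dark deletion libraries were spread about their mean of 101 ± 86.6 CPM (SD, n = 3). The interaction was -6.14 (SE 1.08, edgeR adjusted p = 0.00383). With replicate 3 of the dark deletion strain left out it was -5.26, and with replicate 1 of the light deletion strain left out -6.97.

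**Figure D3:**
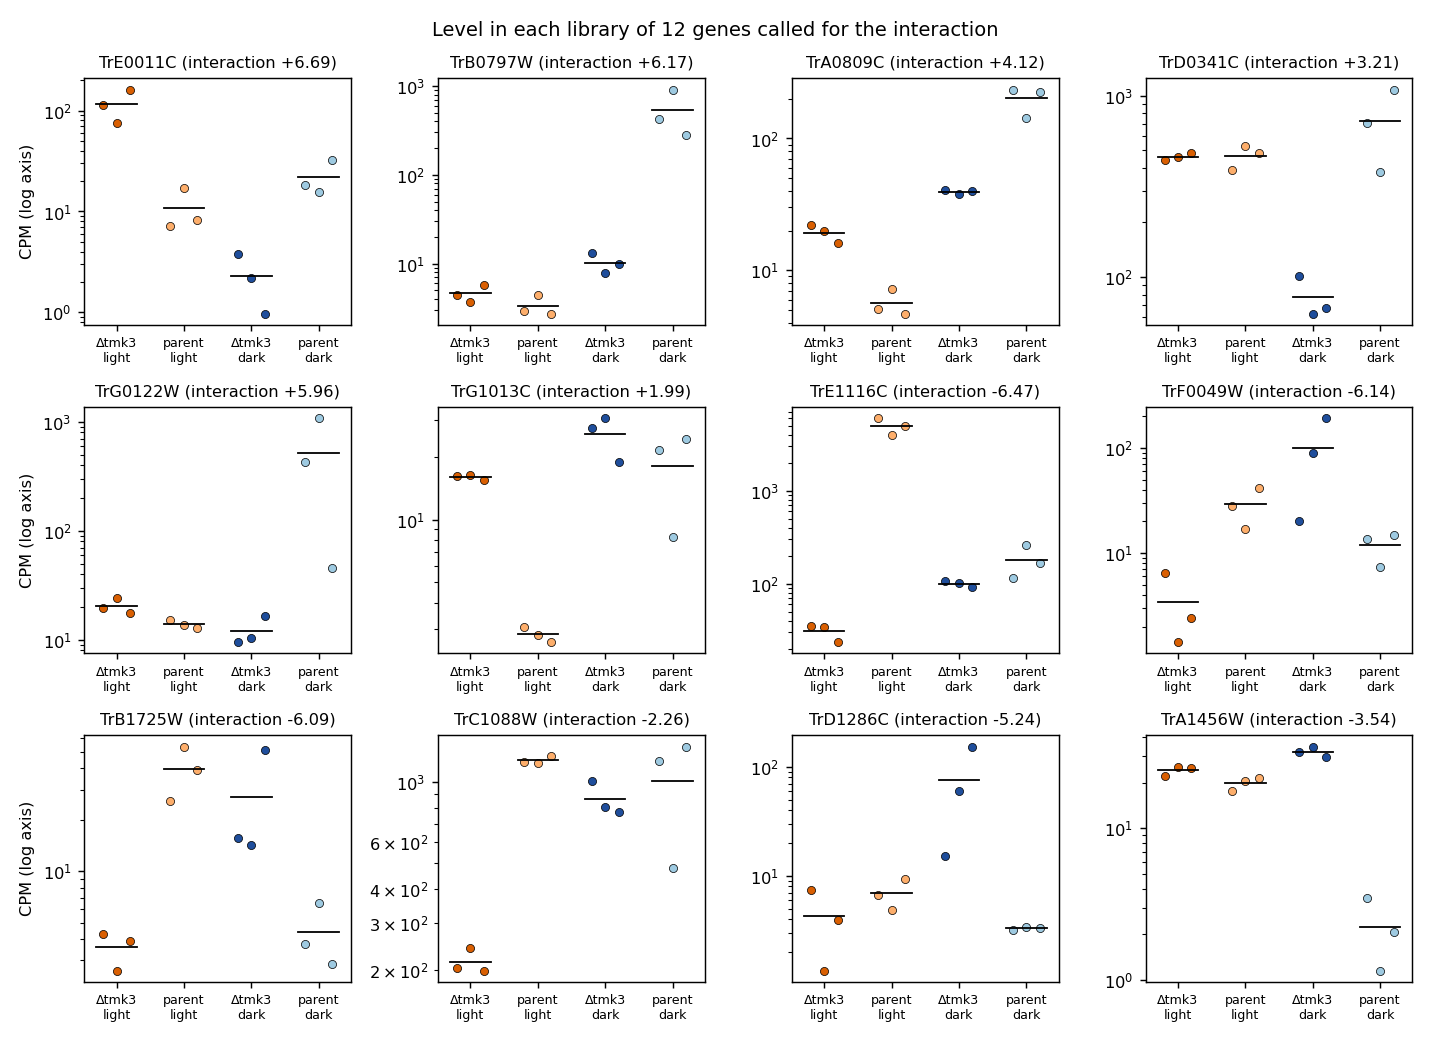
Level of 12 interaction genes in every library, in CPM on a log axis, with 3 points and a line at the mean for each group; Δtmk3 is the deletion strain. The panels give the log2 interaction, and show genes with reversed deletion effects such as TrE0011C, TrA0809C and TrB1725W beside genes in which 1 group stands apart, such as TrD0341C and TrA1456W.

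Deletion effects of opposite sign, each called on its own, were found in 141 genes, 1.57% of all tested, and all 141 of these were called for the interaction. That call is close to built in, since the interaction is the difference of these same effects in the same fit. The leave-one-out counts below share most of the libraries used to choose the genes and are a description. In 59 of them the deletion strain was higher in light and lower in darkness, with medians of 1.17 in light and -1.31 in darkness. In the other 82 it was lower in light and higher in darkness, with medians of -1.02 in light and 1.18 in darkness. Of the 141, 138 were called in each of the 12 leave-one-out fits, and all 141 without replicate 2 of the parent in darkness, a fit in which the class as a whole grew to 248.

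TrA0809C was among the first kind. It had 22.0, 20.1 and 16.0 CPM in the deletion strain in light, against 5.10, 7.20 and 4.71 CPM in the parent in light. In darkness it had 40.4, 38.1 and 39.8 CPM in the deletion strain, against 235, 144 and 224 CPM in the parent. The strains were separated in both conditions, and light lowered the gene in both, with a log2 response of -1.03 in the deletion strain and -5.15 in the parent. The interaction was 4.12 (SE 0.31, edgeR adjusted p = 4.95e-05).

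TrB1725W was of the second kind. It had 4.27, 2.62 and 3.89 CPM in the deletion strain in light, against 25.8, 53.7 and 39.1 CPM in the parent in light. The dark values were 15.7, 14.2 and 51.3 CPM in the deletion strain, against 3.74, 6.51 and 2.88 CPM in the parent. The light response thus had opposite signs, -2.91 in the deletion strain and 3.18 in the parent, both past the threshold. The interaction was -6.09 (SE 0.76, edgeR adjusted p = 0.000627). It was -5.23 when replicate 3 of the dark deletion strain, the highest of its group, was left out.

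An interaction can also come from 1 group that departs while the other 3 share a level. Such a group was found in 293 interaction genes (23.1%), and in 672 (7.47%) of all tested genes. The group that stood apart was the deletion strain in light in 31 interaction genes, the parent in light in 40, the deletion strain in darkness in 71 and the parent in darkness in 151. The count of 40 was 24 with replicate 1 of the light parent left out and 25 with replicate 1 of the light deletion strain left out. The dark parent was also the group most often apart over all tested genes, with 327, against 77, 112 and 156 for the deletion strain in light, the parent in light and the deletion strain in darkness. It was above the others in 70 interaction genes and below them in 81, where over all tested genes it was above them in 190 and below them in 137. In 49 of those 81 genes its lowest library was replicate 2, against 16 for each of its other replicates. In the 70 genes its highest library was replicate 1 in 12, replicate 2 in 30 and replicate 3 in 28. The matching counts by replicate over all tested genes were not made. Without replicate 2, 80 of the 81 and 69 of the 70 remained called.

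The parent in darkness stood high in TrG0122W. The gene had 19.4, 24.0 and 17.4 CPM in the deletion strain in light, against 15.1, 13.8 and 12.7 CPM in the parent in light. In darkness it had 9.51, 10.4 and 16.5 CPM in the deletion strain, against 426, 1082 and 45.2 CPM in the parent. The dark parent libraries differed widely among themselves, and even the lowest was above the other 9. The interaction was 5.96 (SE 1.12, edgeR adjusted p = 0.00556). Leaving out replicate 2 of the parent in darkness gave 4.78.

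The dark parent stood low in TrA1456W. The gene had 22.1, 25.3 and 24.9 CPM in the deletion strain in light, against 17.5, 20.4 and 21.5 CPM in the parent in light. Its dark levels were 31.6, 34.6 and 29.6 CPM in the deletion strain, against 3.47, 1.15 and 2.07 CPM in the parent. The dark deletion libraries were thus above both light groups and far above the dark parent. Light raised it in the parent by 3.13 on the log2 scale, and in the deletion strain the response was -0.41 (edgeR adjusted p = 0.228). The interaction was -3.54 (SE 0.38, edgeR adjusted p = 0.000324).

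The deletion strain in darkness was the group apart in the next pair. TrD0341C had 101, 62.8 and 67.3 CPM in it, against 704, 381 and 1082 CPM in the parent in darkness. In light it had 443, 458 and 482 CPM in the deletion strain, against 389, 532 and 482 CPM in the parent, which overlapped. The interaction was 3.21 (SE 0.45, edgeR adjusted p = 0.00113). The gene rose in light in the deletion strain by 2.58, and its response in the parent was -0.63 (edgeR adjusted p = 0.12).

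TrD1286C stood high in the same group, with 15.2, 60.1 and 153 CPM in the deletion strain in darkness, against 3.19, 3.38 and 3.32 CPM in the parent in darkness. In light it had 7.44, 1.35 and 3.89 CPM in the deletion strain, against 6.60, 4.82 and 9.33 CPM in the parent. The 3 dark deletion libraries were all above the rest but spread over a wide range. The interaction was -5.24 (SE 1.07, edgeR adjusted p = 0.00836). It was -4.22 with the highest dark deletion library, replicate 3, left out and -5.93 with replicate 1 of the light deletion strain left out, and the call was lost in limma-voom with a weight for each group.

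The light groups stood apart less often. TrC1088W was low in the deletion strain in light, with 204, 242 and 200 CPM, against 1183, 1179 and 1244 CPM in the parent in light. In darkness it had 1008, 807 and 774 CPM in the deletion strain, against 1190, 478 and 1351 CPM in the parent, which overlapped. The parent had similar levels in light and darkness (log2 light response 0.26, edgeR adjusted p = 0.495), whereas the deletion strain had less in light, with a response of -2.00. The interaction was -2.26 (SE 0.42, edgeR adjusted p = 0.00548). The deletion strain in light stood high in 3 interaction genes, and none of those met the rule for naming.

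The parent in light was apart in both directions. TrF0527C had 7.83, 9.51 and 8.02 CPM in the deletion strain in light, against 23.9, 42.5 and 27.6 CPM in the parent in light. Its dark levels were 6.44, 9.29 and 9.80 CPM in the deletion strain, against 4.92, 6.84 and 6.42 CPM in the parent. The light parent was above all 9 other libraries, and the interaction was -2.38 (SE 0.35, edgeR adjusted p = 0.00146). TrG1013C had 16.3, 16.4 and 15.6 CPM in the deletion strain in light, against 3.07, 2.79 and 2.59 CPM in the parent in light. In darkness it had 27.6, 30.7 and 18.9 CPM in the deletion strain, against 21.5, 8.24 and 24.3 CPM in the parent. This transcript fell in the parent, with a log2 light response of -2.67, while its response in the deletion strain was -0.68 (edgeR adjusted p = 0.124). The interaction was 1.99 (SE 0.48, edgeR adjusted p = 0.0184).

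Neighbouring identifiers shared an interaction in places. Consecutive tested identifiers of a letter series were taken as neighbours, so a run could skip numbers that were not tested. Whether they lie side by side cannot be checked, since the file has no coordinates. Runs of at least 3 tested neighbours called in the same direction numbered 15 for positive interactions and 10 for negative ones, and held 54 (9.39%) and 34 (4.90%) of the genes called in that direction. The longest run in each direction had 6 genes. Positive calls made up 6.39% of all tested genes and negative calls 7.71%. How many runs such shares would give by chance was not worked out, so the run counts are a description.

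The longest positive run was TrE0011C to TrE0016W. All 6 genes fell in darkness without tmk3, with log2 deletion effects between -5.75 and -3.28, and 5 of the 6 rose in light, with effects between 1.15 and 3.59 over the 6. Their summed level was 262, 161 and 349 CPM in the deletion strain in light, against 23.0, 51.9 and 34.7 CPM in the parent in light. In darkness it was 6.51, 4.01 and 1.99 CPM in the deletion strain, against 54.4, 44.3 and 97.4 CPM in the parent. The strains were separated in both conditions, in opposite directions. Fitted interactions ran from 6.17 to 9.22, and all 6 genes were called in each of the 12 leave-one-out fits. Their sizes rest on few counts. Over the 3 dark deletion libraries TrE0011C had 104 counts and the other 5 genes between 5 and 36. For the lowest of these genes the fitted values are uncertain and are no measured folds. The gene with the largest value, TrE0016W, kept 9, 3 and 4 counts in the dark deletion libraries. Its value was 9.91 with the first of these libraries left out.

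The longest negative run was TrB0327C to TrB0332W. All 6 genes rose in darkness without tmk3, by 0.68 to 2.29, and 4 fell in light, with effects between -2.94 and -0.36 over the 6. Their summed level was 52.1, 50.5 and 51.8 CPM in the deletion strain in light, against 113, 69.0 and 78.8 CPM in the parent in light. In darkness it was 90.6, 80.1 and 76.4 CPM in the deletion strain, against 37.3, 22.9 and 47.4 CPM in the parent. The summed levels of the dark deletion strain and the light parent overlapped and lay above those of the other pair of groups. Interactions ran from -5.09 to -1.04, and 4 of the 6 were called in every leave-one-out fit. The largest sizes rest on few counts. The gene at -5.09 had 33 counts over the light deletion libraries, and 14.3, 1.96 and 3.53 CPM in the parent in light. The gene at -4.02 had 34 counts over the light deletion libraries and 36 over the dark parent libraries. At the start of the run TrB0327C stood at -1.96 (SE 0.32, edgeR adjusted p = 0.00271). TrB0332W at its end stood at -1.94 (SE 0.48, edgeR adjusted p = 0.0209), a call lost in 3 of the 12 leave-one-out fits.

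**Figure D4:**
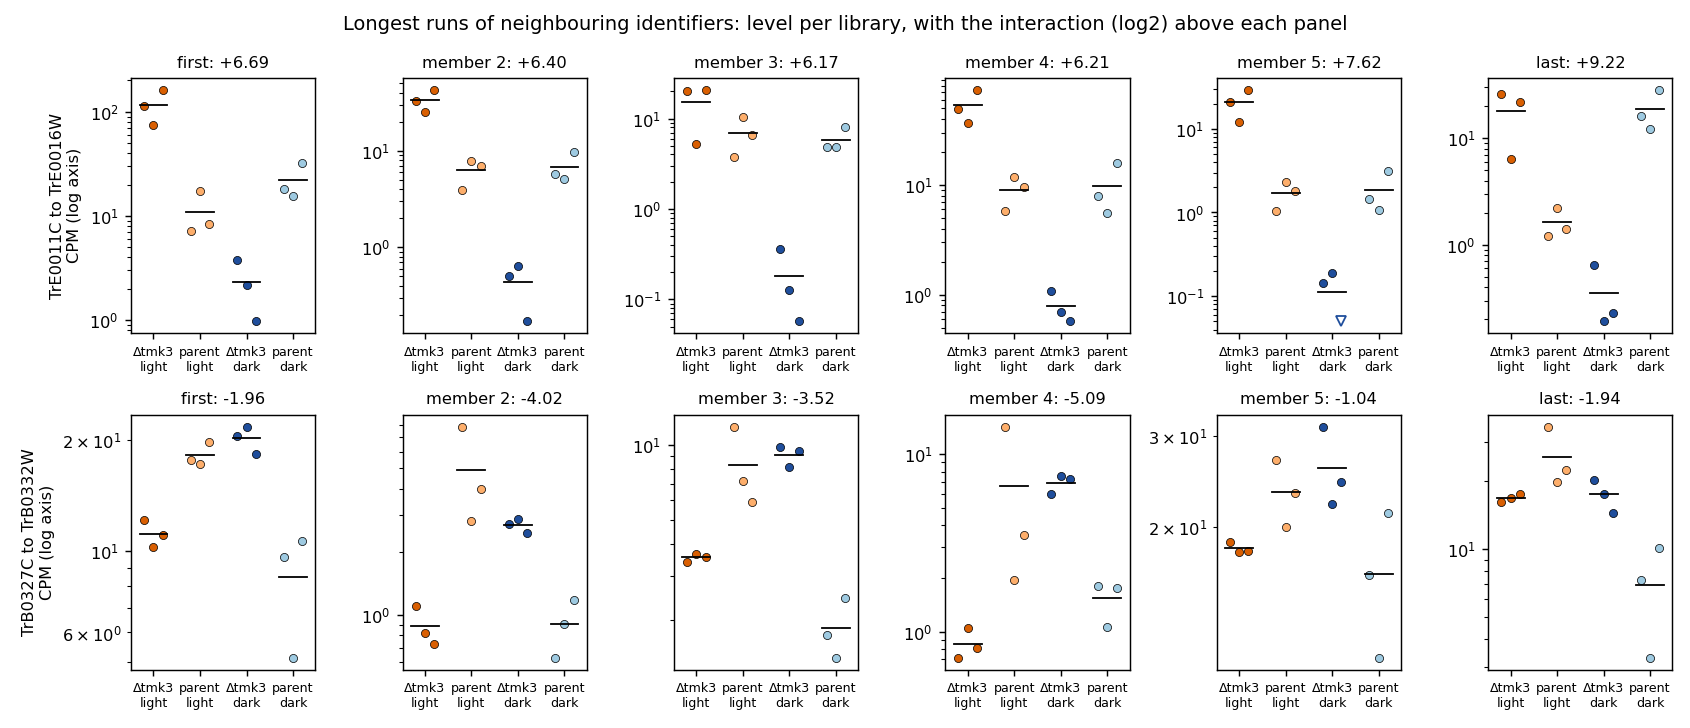
Level in every library, in CPM on log axes that differ between panels, of the 6 genes of the longest positive run (top) and of the longest negative run (bottom), in the order of their numbers; the open triangle marks a library with 0 counts, and each line is a group mean. By group means, the deletion strain lies above the parent in light and below it in darkness in every panel of the top row, and the other way round in every panel of the bottom row.

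Interaction calls were spread over all 7 letter series, between 11.9% of tested genes in series A and 16.0% in series G, around the 14.1% of all genes. Positive genes outnumbered negative ones in series E, with 86 against 62, and series F leaned the other way, with 46 positive and 88 negative. No test was run on these counts.

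With genes divided into 3 nearly equal bins by mean log2 CPM over the 12 libraries, called shares were 15.7% in the lowest bin, 14.2% in the middle bin and 12.4% in the highest, against 14.1% of all genes. Among called genes the median absolute interaction was 2.36 in the lowest bin, 1.30 in the middle bin and 1.04 in the highest. Over all genes of the same bins it was 0.86, 0.36 and 0.30. A call needs a larger value where the SE is larger, so the sizes of called genes cannot be compared between bins. The median SE over all genes of the lowest, middle and highest bin was 0.57, 0.25 and 0.20.

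The weight of these genes in the RNA can be read from their share of all counts, given as a description since the genes were chosen on the same libraries. The 575 positive genes held 7.97% ± 0.172 of counts in the deletion strain in light and 5.81% ± 0.439 in the parent in light (SD, n = 3 each). In darkness they held 6.60% ± 0.294 in the deletion strain and 13.8% ± 1.31 in the parent. The 694 negative genes held 11.3% ± 0.775 in the deletion strain in light and 14.8% ± 0.595 in the parent in light, and in darkness 7.61% ± 0.346 in the deletion strain and 3.42% ± 0.752 in the parent.

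By mean CPM over the 4 groups, which its light levels set, TrE0391W ranked first among the interaction genes. It had 38533, 53807 and 48068 CPM in the deletion strain in light, against 62879, 62190 and 73814 CPM in the parent in light. Its dark levels were 70.2, 13.2 and 88.7 CPM in the deletion strain, against 3.61, 11.5 and 14.2 CPM in the parent, and these overlapped. Its interaction of -3.06 (SE 0.84, edgeR adjusted p = 0.035) lost the call in 9 of 12 leave-one-out fits, at adjusted p of up to 0.0881. With it left out, a choice made after its values were seen, the other 693 negative genes held 6.31% ± 0.0858 in the deletion strain in light and 8.29% ± 0.389 in the parent in light. In darkness they held 7.61% ± 0.350 in the deletion strain and 3.42% ± 0.752 in the parent.

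**Figure D5:**
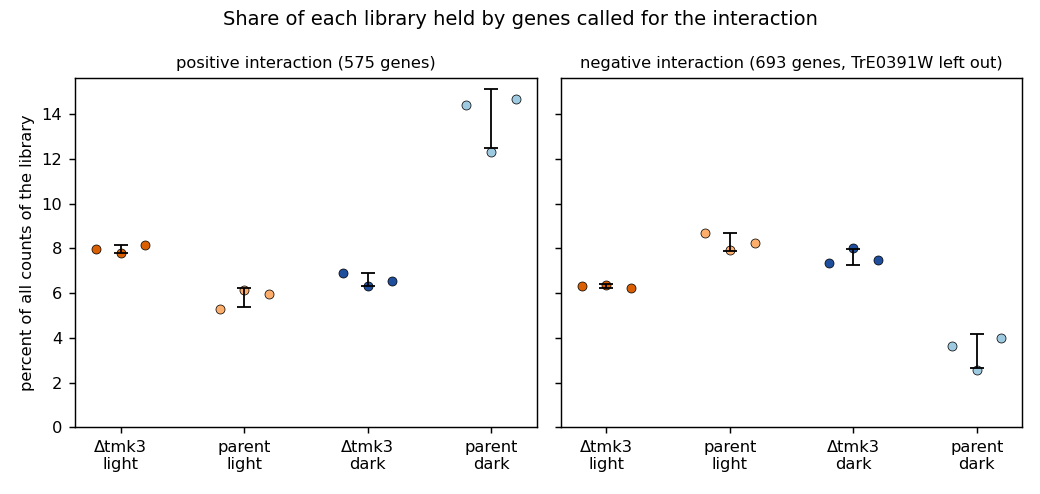
Percent of all counts of each library held by the 575 genes with a positive interaction (left) and by 693 genes with a negative one, TrE0391W left out (right); points are libraries, bars are the mean ± SD of 3, and Δtmk3 is the deletion strain. The parent in darkness is the highest group on the left, at 12.3% to 14.7%, and the lowest on the right, at 2.57% to 4.02%.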

How the data were processed

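Total RNA from mycelium was depleted of rRNA and made into stranded libraries, per the labels' protocols. The authors deposited one table of raw whole-number counts, and no scaling had been applied to it. Per the submitters' processing notes reads were handled with HISAT2 2.2.1, and the design text cites the QM6a transcript set of the complete genome. Strand setting and filters of the counting were not given in the sources used here. Genes that overlap or have near-identical copies are therefore uncertain. Each column was tied to a sample through its label, with 0 columns unused.

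The analysis ran in R 4.3.3 with edgeR 4.0.16 (filterByExpr, TMM, 1 model with 4 group means, quasi-likelihood test). The contrast was the deletion effect in light minus that in darkness, called at an adjusted p below 0.05. SE values are approximate, from the log2 fold change and the root of its F. Levels are CPM from TMM-scaled sizes. Group means of log2 CPM used a prior count of 2. Alternatives used DESeq2 1.42.0 and limma 3.58.1. The procedure was run on simulated counts in which each gene had the same spread in every group and effects were placed in the light deletion strain alone. The real groups differed in spread, so the simulation did not test how the procedure behaves under that condition.

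The labels do not say that a replicate number marks a shared culture or batch, so numbers were not treated as pairs. Same-numbered libraries of different groups did not deviate together, which with 3 libraries per group cannot decide the question. The members, patterns and lists were chosen with earlier results of these data known. Identifiers were named by a written rule. Eligible genes (515) were called in the fit to all libraries and in all 12 leave-one-out fits, averaged at least 3 in log2 CPM and had at least 10 counts in each group. Named were the 2 largest in each direction, 1 in each direction with opposite deletion effects, 1 per group apart and side, the ends of the longest runs and the interaction gene of highest mean CPM. Run ends and that last gene did not have to be eligible.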

Additional observations from a re-analysis of the deposited data

Results flagged for a closer look

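For each gene named above, the deletion effect in light differed from that in darkness by the interaction test itself. The positive interactions, on the log2 scale, were 6.69 for TrE0011C, 6.17 for TrB0797W, 4.12 for TrA0809C, 1.99 for TrG1013C, 3.21 for TrD0341C, 5.96 for TrG0122W and 9.22 for TrE0016W. The negative ones were -6.47 for TrE1116C, -6.14 for TrF0049W, -6.09 for TrB1725W, -2.26 for TrC1088W, -2.38 for TrF0527C and -5.24 for TrD1286C. They were -3.54 for TrA1456W, -1.96 for TrB0327C, -1.94 for TrB0332W and -3.06 for TrE0391W. Groups of 3 libraries were too small to look for single outlying libraries by a fixed criterion.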

How the results depend on the processing

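The interaction was recomputed with other scalings, tools, filters and thresholds, with a replicate block and without each library. At an adjusted p below 0.01, 554 genes were called, 224 positive and 330 negative. DESeq2 called 1818, of which 886 were positive, and total count scaling gave 345 positive genes. Without 1 library the count ran from 842 to 1958, with 354 to 900 positive and 463 to 1058 negative. RLE scaling gave 1310, no filter 1239, limma-voom with a weight per group 1032 (539 positive and 493 negative), and a 2-fold minimum 935. With the replicate number as a block 958 were called, 418 positive and 540 negative. Same-numbered libraries correlated between -0.37 and 0.12 in their deviations from group means, and libraries of unlike number between -0.15 and 0.39. The labels do not say whether a shared number marks a shared culture or batch, and these correlations cannot decide it. Each named gene kept its sign in every alternative, and 18 of their 340 recomputed values, all of TrG1013C, TrD1286C, TrB0332W and TrE0391W, lost the call. Most named genes had to be called in every leave-one-out fit to be named, so their values in those fits could not lose the call. The count of 18 is therefore no measure of stability. Over all interaction genes, 710 of 1269 were called in every leave-one-out fit. With the block TrE0391W had an interaction of -3.03 (edgeR adjusted p = 0.0608). The class with a deletion effect in light alone, 246 genes, ran from 155 without replicate 1 of the light parent to 420 without replicate 2 of the dark parent, and was 159 without replicate 1 of the light deletion strain. The class with effects in the same direction, 146 genes, ran from 84 without replicate 2 of the light deletion strain to 286 without replicate 2 of the dark parent. Genes near 0 in a group have sizes limited by depth, at 3 counts per library. The cause of these changes was not tested.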
